A study of Mus musculus with 6 samples.

Results

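The 8 genes described here encode the nuclear receptors for retinoic acid (Rara, Rarb and Rarg), the retinoid X receptors (Rxra, Rxrb and Rxrg) and the thyroid hormone receptors (Thra and Thrb) of the mouse. They were taken as all promoter fragments that carry 1 of these 8 gene names in the interaction lists, out of 21202 genes listed in either HiCap replicate. HiCap joins Hi-C, the ligation of DNA ends that lie close together in fixed nuclei, to sequence capture of promoter fragments, and was carried out on 2 biological replicates of mouse embryonic stem cells (mESCs). All libraries came from untreated cells of 1 line, R1, grown on gelatin with serum and leukemia inhibitory factor, fixed with formaldehyde and digested with MboI, which recognizes GATC. Hi-C without capture was carried out on 2 replicates of the same line and is listed for both together, and 2 Capture-C libraries were not analysed here. A pair is a distinct promoter fragment and distal region, the fragment at the other end of the ligation, and a called pair is 1 that stands in the lists of both HiCap replicates. A region is called linked to a gene when it forms a called pair with a promoter fragment of that gene. The 8 genes were selected on their numbers of listed pairs, so these numbers and the shares computed from them are given as a description, with no test. The lists give positions on mm9 and no read numbers, so the depth behind a pair is unknown here, and they hold no expression by which the cell type could be checked against its markers.

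Retinoic acid and thyroid hormone receptors bind DNA together with a retinoid X receptor, which is their common partner, and recruit corepressors without ligand and coactivators with it. The pairs of receptors bind direct repeats of a hexamer close to AGGTCA, and the number of bases between the repeats is known to favour one receptor pair over another. Retinoic acid drives mESCs out of the pluripotent state, and several receptor genes are known to be transcribed from alternative promoters of which 1 responds to the ligand itself.

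The lists named 4 promoter fragments of Rara, which lies on the plus strand of chromosome 11 and is 47124 bp long. The first, chr11:98788934-98789230, holds the start of the transcript Rara-003. The second, chr11:98798665-98799454, holds those of Rara-001 and Rara-002, and the third, chr11:98801006-98801738, holds those of Rara-201 and Rara-006. The internal promoter, as the remaining fragment is called here, chr11:98821734-98821931, begins 8 bp past the start of Rara-004. The second and the third fragment also lie within the annotated gene, so the name serves only as a label. These fragments measured 296, 789, 732 and 197 bp, beside a median of 723 bp over all listed promoter fragments. The second fragment and the internal promoter are rich in CpG, with 87.3 and 111 CpG per kb, whereas the first has 40.4 and the third 24.6. The median over all listed promoter fragments was 22.2 CpG per kb. The 250 bases before the start that RefSeq gives within the second fragment (sequence of RefSeq on GRCm38.p6, found once in mm9 at chr11:98798760-98799009, plus strand) are shown because this fragment had the most called pairs of the 8 genes. Capitals mark its 13 CpG.
Rara, second promoter: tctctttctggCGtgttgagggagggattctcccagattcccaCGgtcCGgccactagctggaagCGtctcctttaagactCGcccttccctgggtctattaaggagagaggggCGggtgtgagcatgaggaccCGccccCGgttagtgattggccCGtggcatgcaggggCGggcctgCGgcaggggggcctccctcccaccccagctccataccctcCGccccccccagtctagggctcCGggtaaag

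The internal promoter of Rara, the Rarb promoter and an internal promoter of Rarg share a sequence feature, which was searched because such receptors bind it. Within 500 bases before and 50 after their annotated starts each holds a direct repeat with 5 bases between the hexamers (AGGTCA or AGTTCA or GGGTCA or GGTTCA, searched on both strands). It lies 404 bases before the start of Rara-004, 57 bases before that of Rarb-202 and 487 bases before that of Rarg-003. Of 49 annotated starts of the 8 genes these 3 hold such a repeat, beside 140 (0.172%) of 81247 annotated starts of all genes. The hexamers and spacings searched are those of sites that such receptors bind, so the search was not independent of the choice of the genes. The window was chosen after values had been seen, and several starts of 1 gene can share bases. These numbers are a description. The windows around the repeats are shown so that the arrangement can be compared. Only hexamers that form a searched direct repeat are in capitals, and other single matches to a hexamer are left in lower case. The windows are on mm9 for Rara (chr11:98821272-98821388, plus strand) and Rarg (chr15:102081198-102081314, minus strand). For Rarb the RefSeq sequence found once in mm9 is shown (chr14:17407991-17408240, minus strand).
Rara, before the internal start: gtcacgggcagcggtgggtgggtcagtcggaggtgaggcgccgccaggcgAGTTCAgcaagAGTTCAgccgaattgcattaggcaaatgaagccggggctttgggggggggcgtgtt
Rarb, before the start: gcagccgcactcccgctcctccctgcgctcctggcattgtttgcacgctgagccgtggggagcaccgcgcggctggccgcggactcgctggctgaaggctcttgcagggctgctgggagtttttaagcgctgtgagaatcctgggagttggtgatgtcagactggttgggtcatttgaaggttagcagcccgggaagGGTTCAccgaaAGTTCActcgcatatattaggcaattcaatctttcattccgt
Rarg, before the internal start: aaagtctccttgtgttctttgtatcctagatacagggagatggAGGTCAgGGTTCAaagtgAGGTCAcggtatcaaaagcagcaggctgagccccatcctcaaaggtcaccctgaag
In Rarg a direct repeat with 1 base between overlaps the one with 5 and shares a hexamer with it, so that 3 hexamers are in capitals. None of these 3 repeats lies in a listed promoter fragment of the 8 genes or in a called distal region of any gene, so the pairs described below do not start from them. The single match within a listed promoter fragment of the 8 genes was a repeat with 1 base between in the third fragment of Rxra, gggtcatgggtca at chr2:27566249-27566261. Over all listed promoter fragments, 1.72% held a repeat with 1, 2, 4 or 5 bases between. A match says only that these letters are present.

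Called pairs were found for 6 of the 8 genes, beside 60.9% of all listed genes, and for 18 of their 22 listed promoter fragments, beside 51.9% of all listed promoter fragments. The 8 genes had 269 called pairs, of which Rara held 162. This was the highest number of all genes, and its 100 called distal regions ranked 4 among all genes. A region counts in the called pairs once for each own promoter fragment it is linked to. Igfbp4, which lies near Rara on chromosome 11, had 155 called pairs and 111 called distal regions. Rara had 286 pairs in replicate 1 and 497 in replicate 2. Both replicates and Hi-C thus listed many pairs for this gene, with 69 in the Hi-C list.
The second fragment of Rara had 145 pairs in replicate 1, 232 in replicate 2 and 88 called pairs. It ranked 6 among the 15876 promoter fragments with a called pair and 3 among the 1931 of these on chromosome 11. The internal promoter had 99, 169 and 55, and ranked 55 among all and 23 on chromosome 11. The third fragment had 30, 90 and 14 and the first 12, 6 and 5. The second fragment and the internal promoter led in both replicates, in the same order, and the first and the third fragment stood below them in each. Hi-C gave another order: it listed 26 pairs for the internal promoter, 23 for the second, 15 for the first and 5 for the third. The called pairs of the 4 were not in the order of fragment length. The shortest, the internal promoter, had more than the first and the third, and the part of length was not tested.

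**Figure D1:**
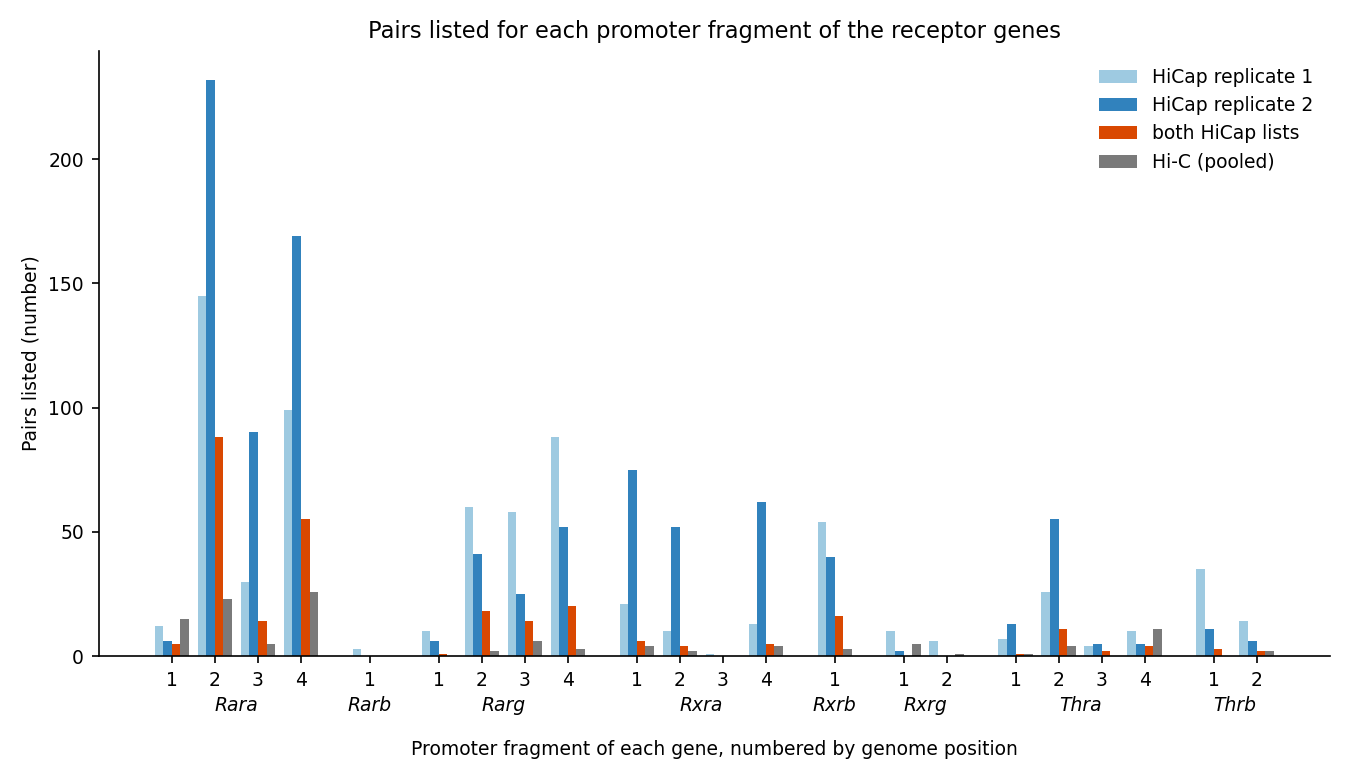
Number of pairs (vertical axis) listed for each promoter fragment of the 8 receptor genes (horizontal axis, numbered along the genome within a gene), with bars for HiCap replicate 1, replicate 2, pairs in both HiCap lists and the pooled Hi-C list. The second fragment and the internal promoter (the last) of Rara stand above all others with 88 and 55 called pairs, and Rarb and Rxrg have none.

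Chromosome 11 carries Rara and Thra and differs from the rest of the lists, which bears on every count of these 2 genes. It holds 10.6% of the listed promoter fragments but 18.8% of the called pairs and 22.5% of the Hi-C pairs. Replicate 1 placed 11.9% of its pairs there and replicate 2 placed 18.6%. A listed promoter fragment on chromosome 11 had 5.51 called distal regions on average, beside 3.10 over all chromosomes. The part of this in the numbers of Rara and Thra was not tested, and values of chromosome 11 are given beside some of theirs.

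Rarg, on the minus strand of chromosome 15, came next, with 216 pairs in replicate 1, 124 in replicate 2, 53 called pairs and 11 pairs in Hi-C. In contrast to Rara, its called pairs were spread over 3 fragments of similar rank. The fragment with the outermost start, chr15:102087261-102089452 of Rarg-001 and Rarg-006, had 88, 52 and 20. The one that holds the start of Rarg-003, chr15:102080394-102080904, had 58, 25 and 14, and chr15:102076469-102076804 had 60, 41 and 18. The remaining one, chr15:102073598-102076469, had 10 and 6 pairs and 1 called pair. The fragment with 18 called pairs ends 127 bp short of the start of Rarg-002, which lies in the adjoining fragment, and the combined list of the authors assigns these 18 pairs to that adjoining fragment (chr15:102076804-102077570). The 39 called distal regions of Rarg were the same in both versions.
Rarb, the third retinoic acid receptor, had no called pair. Its single listed fragment, chr14:17407717-17407778 on chromosome 14, measured 61 bp and lies 208 bp from the start of Rarb-202. It had 3 pairs in replicate 1, and neither replicate 2 nor Hi-C listed any.

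The retinoid X receptor genes had fewer called pairs. Rxrb, on chromosome 17, had 1 promoter fragment (chr17:34168560-34169073) with 54 pairs in replicate 1, 40 in replicate 2 and 16 called. This fragment had the highest CpG content of the 8 genes, with 130 CpG per kb. Rxra, on chromosome 2, had 45 pairs in replicate 1, 189 in replicate 2 and 15 called. Replicate 2 thus listed more pairs of Rxra than replicate 1, and the called ones came from chr2:27530780-27533512 with 6, chr2:27562450-27564962 with 4 and chr2:27595586-27596369 with 5. The fragment of Rxra-003, chr2:27566094-27566610, had 1 pair in replicate 1 and none in replicate 2. Rxrg, on chromosome 1, had no called pair: replicate 1 listed 16 pairs and replicate 2 listed 2, none of them the same. Hi-C listed 6 pairs of Rxrg, and none of these was in either HiCap list.

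The 2 thyroid hormone receptor genes also differed. Thra had 47 pairs in replicate 1, 78 in replicate 2, 18 called and 16 in Hi-C. Its main fragment, chr11:98602770-98604556, holds 5 annotated starts and had 26, 55 and 11. The fragment of Thra-004, chr11:98613742-98615189, had 10, 5 and 4 pairs in these lists, yet 11 in Hi-C, where the main fragment had 4. The other two fragments, chr11:98600843-98602087 and chr11:98605055-98606220, had 1 and 2 called pairs. Thrb, whose 2 promoter fragments lie 321 kb apart on chromosome 14, had 49 pairs in replicate 1, 17 in replicate 2 and 5 called, of which chr14:18492810-18494013 had 3 and chr14:18813651-18815039 had 2. Across the 5 genes with several called fragments, 1 fragment held most of the called pairs in Rara, Thra and Thrb but not in Rarg and Rxra.

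The overlap of the replicates placed Rara differently by direction. Of the replicate 1 pairs of Rara, 56.6% (exact 95% binomial interval 50.7 to 62.5) were in replicate 2, beside 19.0% of all pairs of replicate 1. On chromosome 11 this share was above that of all genes in every distance class, with 47.0% beside 31.6% at 1 to 5 kb. For the other called genes this share was 38.3% for Thra, 33.3% for Rxra, 29.6% for Rxrb, 24.5% for Rarg and 10.2% for Thrb, all below Rara. Of the replicate 2 pairs of Rara, 32.6% (28.5 to 36.9) were in replicate 1, beside 17.1% of all pairs of replicate 2. Here Rarg with 42.7% (33.9 to 51.9) and Rxrb with 16 of its 40 pairs stood above Rara, and Thrb with 29.4%, Thra with 23.1% and Rxra with 7.94% below it. Both shares of a gene count the same called pairs, so each also depends on how many pairs each replicate listed. Replicate 2 listed more pairs of Rara, Rxra and Thra than replicate 1, and fewer of Rarg, Rxrb and Thrb. The part of this in the order of the genes was not tested. Intervals cover counting error only, and pairs that share a fragment are not independent.
Distance moves with this overlap. At 10 to 25 kb, 78.7% (66.3 to 88.1) of the 61 replicate 1 pairs of Rara were also in replicate 2, beside 16.5% (10.1 to 24.8) for the 7 paralogs, 32.7% for chromosome 11 and 20.1% for all genes. At 25 to 100 kb the shares were 46.4%, 19.7%, 22.6% and 13.1%. Over 100 kb they were 27.3% for Rara, 23.0% (14.0 to 34.2) for the paralogs, 12.6% for chromosome 11 and 7.37% for all genes. Thus this share of Rara lay above that of chromosome 11 in each of the 5 classes, and it lay within the interval of the paralogs over 100 kb but not at 10 to 25 kb. At 1 to 5 kb it was 84.0% for Rara, 46.3% for the 7 paralogs and 72.2% (46.5 to 90.3) for Rarg alone. At 5 to 10 kb it was 78.8% for Rara, 37.3% for the paralogs and 83.3% (35.9 to 99.6) for Rxra alone. Of the replicate 2 pairs over 100 kb, 6.1% of Rara, 9.39% of the paralogs and 30.2% of Rarg were in replicate 1.

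**Figure D2:**
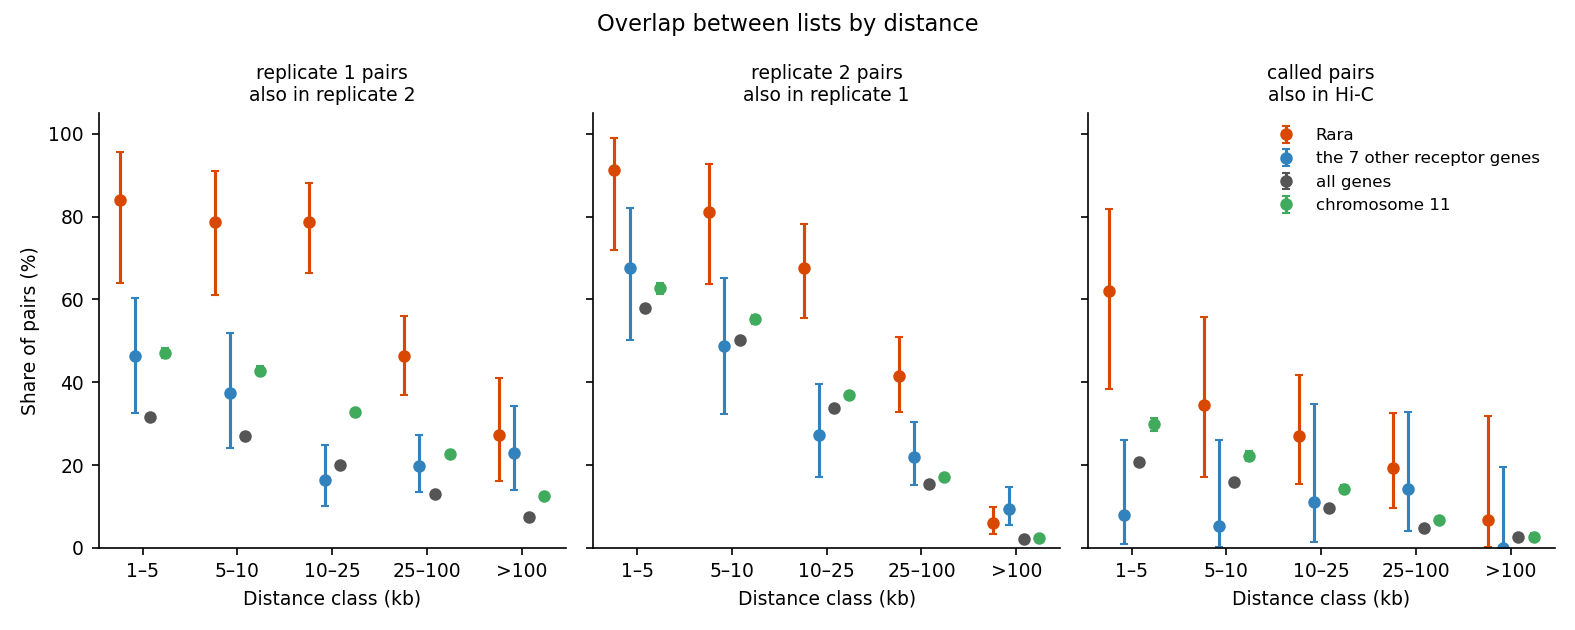
Share of pairs in percent (vertical axis) by distance class in kb (horizontal axis): replicate 1 pairs also in replicate 2, replicate 2 pairs also in replicate 1, and called pairs also in Hi-C, for Rara, the 7 other receptor genes, all genes and chromosome 11. Bars are exact 95% binomial intervals, and the share of replicate 1 pairs of Rara falls from 84.0% at 1 to 5 kb to 27.3% over 100 kb.

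The distance between the midpoints of the called pairs of Rara had a median of 17.7 kb and ranged from 1.83 to 213 kb, beside a median of 10.3 kb over all called pairs and 11.7 kb on chromosome 11. The replicates did not list the same range. The median was 32.0 kb in replicate 1 and 97.9 kb in replicate 2, and replicate 2 listed 100 pairs of Rara over 1000 kb apart, where replicate 1 listed 2 and no such pair was called. This was not limited to Rara, since such pairs made up 19.4% of the whole list of replicate 2 and 0.371% of that of replicate 1. Replicate 2 also listed 17 such pairs for Rxra, 12 for Thra and 2 for Thrb, and replicate 1 listed none for these 3 genes.
Rarg was the single gene of the 8 with called pairs of that length. It had 5, among 66 over all genes, and they reached 3 of its fragments, with 2030 kb as the longest. The regions at 2030 and 1770 kb overlap exons of Dip2b and Letmd1. The second of them, chr15:100306704-100308683, was linked to 20 promoter fragments. A further 2 pairs led from different fragments of Rarg to 1 intergenic region at chr15:100923491-100924518, which was also linked to the nuclear receptor gene Nr4a1 and to Ankrd33. The remaining pair, to chr15:101075431-101077440, just passed 1000 kb. None of the 5 was in Hi-C.

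**Figure D3:**
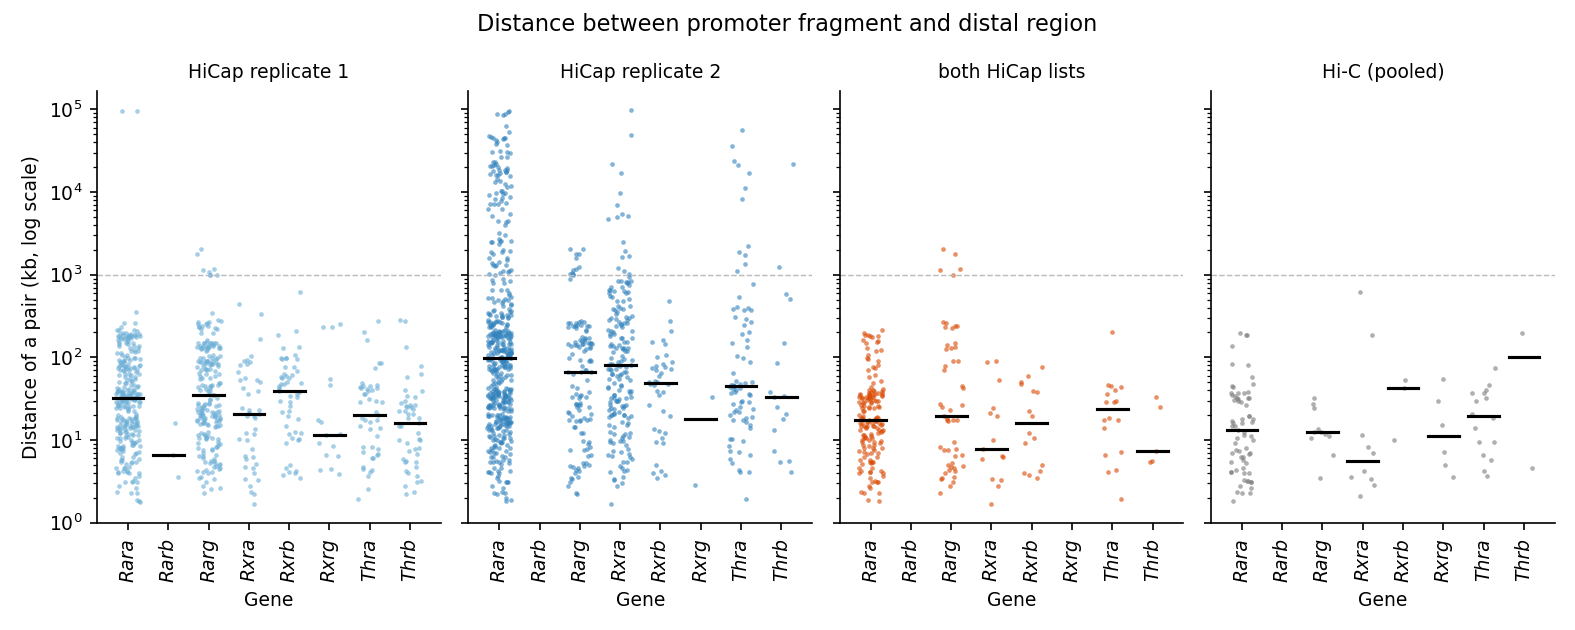
Distance between promoter fragment and distal region in kb (vertical axis, log scale) for each pair of the 8 genes (horizontal axis) in HiCap replicate 1, replicate 2, both HiCap lists and Hi-C. Black lines are medians, the dashed line marks 1000 kb, and the 100 pairs of Rara above it in replicate 2 leave none in both lists.

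Hi-C was made without capture probes and offers a list that the call did not use. Of the called pairs of Rara, 46 of 162 (28.4%, 21.6 to 36.0) were in Hi-C, beside 12.5% of all called pairs and 16.8% of those on chromosome 11. Thra had 5 of 18 (27.8%, 9.69 to 53.5). For Rarg it was 3 of 53 (5.66%, 1.18 to 15.7), for Rxra 1 of 15, and for Rxrb and Thrb 0 of 16 and 0 of 5, whose intervals reach 20.6 and 52.2%. The 2 genes on chromosome 11 thus had the higher shares, and the share of chromosome 11 lies within the interval of Thra but below that of Rara.
Within Rara the share was 21 of 88 for the second fragment (23.9%, 15.4 to 34.1), 18 of 55 for the internal promoter (32.7%, 20.7 to 46.7), 4 of 14 for the third and 3 of 5 for the first. The intervals of the 2 leading fragments overlap. By distance, 61.9% (38.4 to 81.9) of the 21 called pairs of Rara at 1 to 5 kb were in Hi-C, beside 29.8% on chromosome 11, and 19.2% (9.63 to 32.5) at 25 to 100 kb, beside 6.66%.
Read from the Hi-C side, the alternative promoters differed more. Of the 15 Hi-C pairs of the first Rara fragment, 11 were in neither HiCap list, whereas this held for 1 of 23 of the second fragment, 0 of 5 of the third and 3 of 26 of the internal promoter. For the fragment of Thra-004 it held for 8 of 11 Hi-C pairs. Among the other genes it held for 7 of 10 of Rxra, 6 of 6 of Rxrg, 2 of 3 of Rxrb, 2 of 2 of Thrb and 4 of 11 of Rarg. Over all genes, 45319 of 74807 Hi-C pairs were in neither. The first fragment of Rara lay nearer to this share than its other fragments did. The replicates listed 12 and 6 pairs for the first fragment and 145 and 232 for the second. A fragment with few HiCap pairs has fewer chances to meet its Hi-C pairs, and the part of this was not tested.

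The distal regions of Rara lay mostly within the gene itself. Of the 100, 13 overlap an exon and 45 an intron of Rara, 16 an exon and 6 an intron of another gene, and 20 lie between genes. Together they covered 75.4% of the 47124 bp of the gene, the second fragment alone 73.6% and the internal promoter 55.8%. Their median length was 525 bp, beside 568 bp over all called distal regions. Because MboI fragments are short, many regions adjoin: the 100 regions merge into 46, and the longest run of adjoining ones, chr11:98803018-98813442, holds 17 over 10424 bp of the gene. Of the 162 called pairs, 58 led upstream and 104 downstream of their promoter fragment. These directions differed between the leading fragments, with 67 of 88 downstream for the second fragment and 21 of 55 for the internal promoter. Both were linked to 20 regions that lie between them, which by position are downstream of the second fragment and upstream of the internal promoter.
For Rarg 10 of 39 regions lay in the gene, for Rxra 9 of 13, for Rxrb 5 of 16, for Thra 4 of 13 and for Thrb 2 of 5. Inside Rara, 30 of 58 regions (51.7%, 38.2 to 65.0) had a pair in Hi-C, and outside it 4 of 42 (9.52%, 2.66 to 22.6). Regions inside the gene also lie nearer to its promoters, and the part of distance in this difference was not tested.

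**Figure D4:**
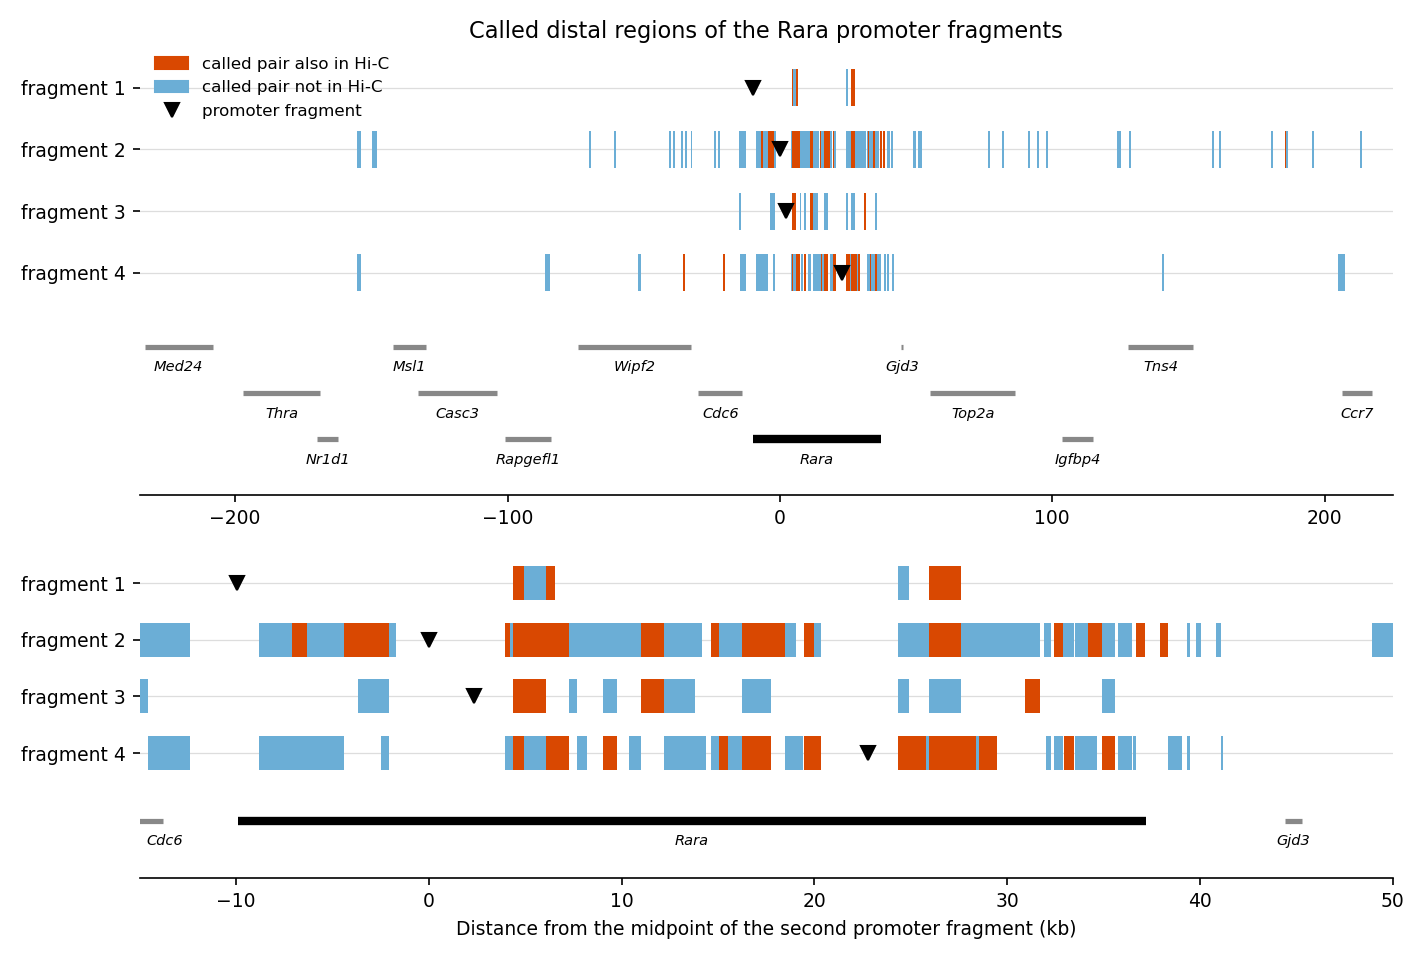
Called distal regions of the 4 Rara promoter fragments (rows) by distance in kb from the midpoint of the second fragment (horizontal axis), for the whole span above and the gene below. Boxes are distal regions, orange where the pair is also in Hi-C and blue where it is not, drawn with a minimal width so that short ones show, triangles are promoter fragments and bars are annotated genes that share a region with Rara.

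The alternative promoters of Rara shared many of their distal regions. Of its 100 regions, 48 were linked to more than 1 of its own promoter fragments (48.0%, 37.9 to 58.2), beside 13.8% of the regions of the 2057 genes with several called fragments and 14.7% for those on chromosome 11. The numbers of called fragments and of regions per fragment differ between genes, and their part in this share was not tested. All 5 regions of the first fragment and all 14 of the third were also linked to the second. The second fragment and the internal promoter, 22.8 kb apart, had 43 regions in common, 48.9% of the regions of the former and 78.2% of those of the latter. Of these 43, 20 lie between the 2 promoters, 16 past the internal one and 7 before the second fragment.
The second fragment alone was linked to 40 regions, of which 25 lie past the internal promoter and 11 in the gene, and the internal promoter alone to 12, of which 4 lie in the gene. In contrast, 39 of the 43 shared regions lie in the gene.
The paralogs had lower or less certain shares. For Rarg 12 of 39 regions (30.8%, 17.0 to 47.6) were linked to more than 1 own fragment, for Thra 4 of 13 (30.8%, 9.09 to 61.4), for Rxra 2 of 13 and for Thrb 0 of 5. In Rarg, the fragments of Rarg-003 and of chr15:102076469-102076804 lie 4.01 kb apart, had 14 and 18 regions and shared 3 of them. The fragments of Rarg-003 and of Rarg-001, 7.71 kb apart, had 14 and 20 regions and shared 7. In Rara the nearest pair of fragments, the second and the third at 2.31 kb, shared all 14 regions of the third.
Of the Rara regions linked to 1 own fragment, 8 of 52 (15.4%, 6.88 to 28.1) had a pair in Hi-C. With 2 own fragments it was 17 of 38 (44.7%, 28.6 to 61.7), with 3 it was 5 of 6, and all 4 regions linked to every Rara fragment had 1. A region with more called pairs has more chances to be met in Hi-C, and the part of this was not tested.

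**Figure D5:**
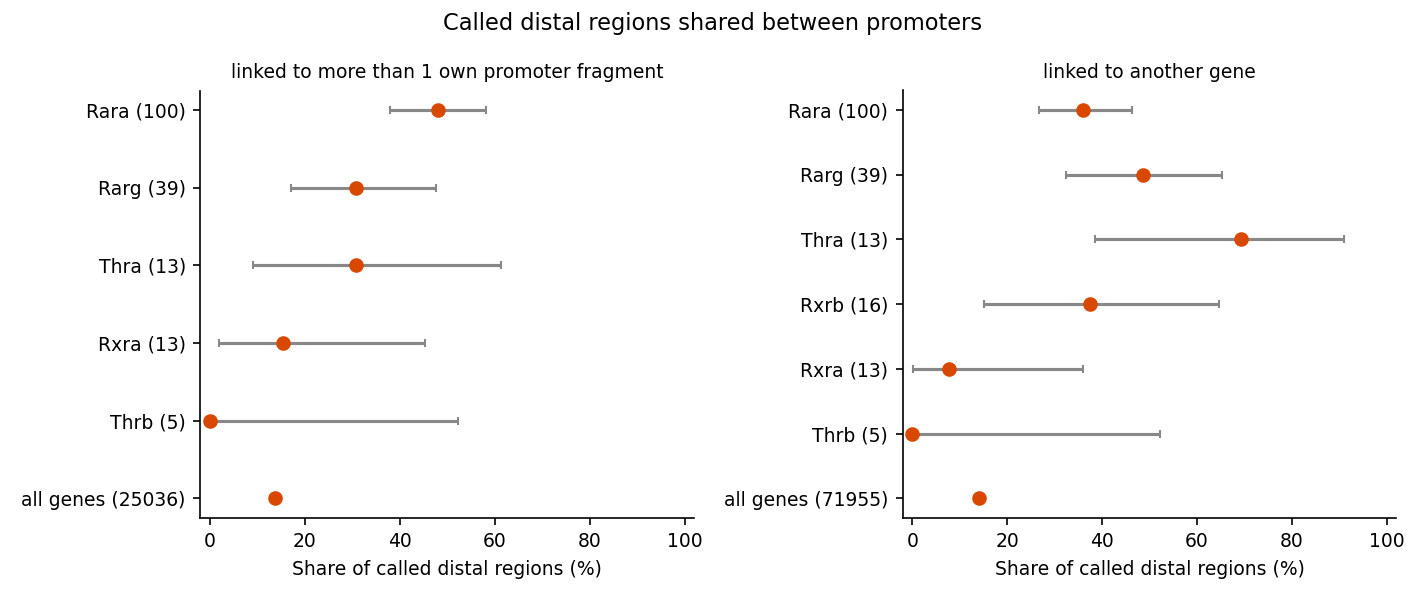
Share of called distal regions in percent (horizontal axis) linked to more than 1 promoter fragment of the same gene (left) and to another gene (right) for each receptor gene with called regions and for all genes, with the number of regions in parentheses. Bars are exact 95% binomial intervals, and Rara has 48.0% in the left panel, beside 13.8% for all genes.

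Distal regions were also shared with other genes. Of the 100 regions of Rara, 36 were linked to another gene (36.0%, 26.6 to 46.2), beside 14.0% of all called distal regions and 16.9% of those on chromosome 11. The share was 9 of 13 for Thra (69.2%, 38.6 to 90.9), 19 of 39 for Rarg (48.7%, 32.4 to 65.2), 6 of 16 for Rxrb, 1 of 13 for Rxra and 0 of 5 for Thrb. Inside Rara it was 14 of 58 regions and outside 22 of 42.
The gene most like Rara by shared regions was its upstream neighbour Cdc6, a DNA replication licensing gene, with 18 shared regions, 41.9% of its 43. Igfbp4, an insulin-like growth factor binding protein gene, shared 17 of its 111, and Wipf2, which encodes an actin regulator, 8 of 20. Gjd3, a gap junction gene that lies just past Rara, shared all 6 of its regions with Rara. Csf3, the gene of granulocyte colony-stimulating factor, shared 4 of 10 and the tensin gene Tns4 shared 4 of 38. In all, 19 other genes shared a region with Rara. As shares of the regions of Rara these overlaps were 18.0% for Cdc6 and 17.0% for Igfbp4.
Rarg shared regions with 51 other genes, most with the zinc finger gene Zfp740 (11 of the 39 regions of Rarg, and of 46) and with Tenc1, a tensin family gene (8, of 36). Thra shared most with Med24, a Mediator subunit gene (8 of the 13 regions of Thra, and of 33), and with the nuclear receptor gene Nr1d1 (6, of 35), whose end overlaps that of Thra on the other strand. Rxrb shared 3 regions each with Brd2, which encodes a bromodomain protein, and the ribosomal protein gene Rps18. The single region that Rxra shared was shared with RP23-328F3.3.

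Rara and Thra lie on the same chromosome with 195 kb between their leading promoter fragments, and 3 called regions were linked to both, 3.00% of the 100 regions of Rara and 23.1% of the 13 of Thra. Both regions near Thra, chr11:98643641-98645110 and chr11:98649475-98651228, lie between genes and were linked to 19 and 25 promoter fragments, and 2 and 1 of their called pairs with Thra but none of those with Rara were in Hi-C. The first Rara fragment formed a pair with the second of these regions in replicate 1 and in Hi-C, which was not called. The third, chr11:98803403-98803968, is a 565 bp fragment in an intron of Rara at the other end of this span. It was linked to all 4 Rara fragments, with all 4 of these pairs in Hi-C, and to 1 fragment of Thra at 200 kb, a pair that was not in Hi-C. It was linked to 12 promoter fragments in all, among them those of Ccr7, Cdc6, Gjd3, Igfbp4, Psmd3 and Wipf2. Its central 300 bases (mm9, chr11:98803536-98803835, plus strand) are shown because it was linked to every Rara fragment and to a paralog. Capitals mark 6 CpG, and the G+C content of these bases was 59.7%.
Rara, shared intronic region: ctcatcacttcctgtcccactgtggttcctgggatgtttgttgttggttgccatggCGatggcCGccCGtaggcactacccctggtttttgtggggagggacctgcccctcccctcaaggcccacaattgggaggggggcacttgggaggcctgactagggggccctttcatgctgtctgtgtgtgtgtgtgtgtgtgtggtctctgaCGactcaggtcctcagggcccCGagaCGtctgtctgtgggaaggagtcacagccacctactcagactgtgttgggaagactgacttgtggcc

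None of the 100 distal regions of Rara held a direct repeat of the hexamers with 1, 2, 4 or 5 bases between, beside 1701 (2.36%) of the 71955 called distal regions of all genes. The share rises with length, from 0.958% of all regions up to 500 bp, a class that holds 45 of the regions of Rara, to 4.99% over 1000 bp, which holds 17. Among the paralogs, 2 regions held a match. A region of Rarg at 2030 kb held aggtcactgggtca, with 2 bases between, at chr15:100050097-100050110. The other, chr17:34173405-34174145, lies in Rxrb and overlaps an exon, 4.96 kb from its promoter fragment, and was also linked to B3galt4, Brd2 and Col11a2. It held a repeat with 4 bases between (gggtcagtgaaggtca, chr17:34173433-34173448, minus strand, just past the annotated start of Rxrb-009) and 1 with 5 bases between, the spacing of the repeats before the starts of Rara, Rarb and Rarg, which is shown with the hexamers in capitals (mm9, chr17:34173785-34173801, minus strand).
Rxrb, called distal region: AGGTCActcaaAGGTCA
Over all called distal regions, 0.324% held a repeat with 5 bases between. No such match lay in a called region of Rara, Rarg, Rxra, Thra or Thrb.

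Genes that act with these receptors were described for comparison. Of 37 genes of the retinoid and thyroid hormone pathway, all listed, 24 had a called pair (64.9%, beside 60.9% of all listed genes), with a median of 2 called pairs, beside 1 over all genes. Of 5 genes for retinoid binding and uptake 4 were called, with 8 called pairs for Crabp2, 5 for Crabp1, which both encode cellular retinoic acid binding proteins, and 1 each for Rbp4 and Stra6. Of the 5 genes of retinoid synthesis 3 were called, with 3 called pairs each for Rdh10 and Dhrs3 and 1 for Aldh1a1. Of the 3 genes of the Cyp26 family, which degrade retinoic acid, Cyp26b1 had 3 and the others none. Of 5 genes of thyroid hormone supply only the transporter gene Slc16a10 was called, with 3.
The corepressor and coactivator genes had more. Ncor1, which encodes a corepressor that unliganded receptors bind, had 150 pairs in replicate 1, 194 in replicate 2 and 47 called, and lies on chromosome 11 like Rara. Among the other corepressor genes, Hdac3 had 25 called pairs, Gps2, also on chromosome 11, had 9 and Tbl1xr1 had 2. Of 6 coactivator genes 5 were called, with 22 for Ep300, 14 for Ncoa2, 12 for Med1, 2 for Ncoa3 and 1 for Crebbp. Of these Med1 lies on chromosome 11. Of 7 target genes 5 were called, led by Klf9 with 35 and Stra8 with 16, and including Nrip1 with 4 and Hr with 1. All these values lie below the 162 of Rara, and Ncor1 came nearest to the 53 of Rarg. By called distal regions Ncor1 had 40 and Rarg 39.
Of 40 other nuclear receptor genes 39 were listed and 22 of these had a called pair (56.4%), with a median of 1. The most were found for Nr4a1 with 50, Nr1d1 with 35, and Nr1i2 and Nr2f6 with 19 each. None of these genes reached the number of called pairs of Rarg, but by called distal regions Nr4a1 had 50 and Rarg 39. Nr1d1, on chromosome 11 beside Thra, had more called pairs than Thra itself.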

How the data were processed

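HiCap and Hi-C libraries of R1 mESCs were processed by the authors. For HiCap, read ends were aligned to mm9 separately with HiCUP and Bowtie, exact duplicates and pairs under 1 kb apart were removed, and interactions needed at least 3 read pairs in each replicate. For Hi-C, these settings are not given in the sources used here. The deposited lists hold positions of a promoter fragment and a distal region, with no level and no read number. The lists are those of HiCap replicates 1 and 2, the combined list of the authors and Hi-C with replicates pooled.

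Distinct pairs were counted with Python 3.11.15 and pandas 2.3.3, and a pair was called when both fragments stood in both replicate lists. Distances were taken between midpoints. Shares carry exact 95% binomial intervals (SciPy 1.17.1). Genes, exons and starts came from GENCODE M1 on mm9 without pseudogenes, and sequences from the mm9 genome and the RefSeq promoter table of GRCm38.p6, which matched 7 of the 8 genes. Counting was checked on simulated lists. The 8 genes, the gene lists and the comparisons were chosen with earlier results of these data known. Named genes were the 8 members, the 6 genes that share most regions with Rara, the 2 that share most with each other member, and pathway genes by number of called pairs. Values of some pathway genes are not reported here. The alternatives were each replicate alone, matches within 1 kb, adjoining regions merged, pairs over 15 kb, the combined list, and any promoter fragment of the gene. No test was made, since 2 replicates of 1 condition give no contrast.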

Additional observations from a re-analysis of the deposited data

How the results depend on the processing

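The numbers of called pairs depended on the replicate lists and on the match. With 1 replicate list alone, Rara had 286 to 497 pairs instead of 162, its second promoter fragment 145 to 232 instead of 88, Thra 47 to 78 instead of 18, the 3 RXR genes 115 to 231 instead of 31, and Rarb, Rarg and Thrb together 141 to 268 instead of 58. With a distal region within 1 kb accepted, these were 248 for Rara, 35 for Thra, 55 for the RXR genes and 133 for Rarb, Rarg and Thrb. With adjoining regions merged, Rara had 84 and its second fragment 41. With only pairs over 15 kb, Rara had 92, the RXR genes 14 and Rarb, Rarg and Thrb 34. The median distance for Rara was 32.0 to 97.9 kb with 1 replicate list alone and 33.1 kb with only pairs over 15 kb, instead of 17.7 kb. The share of its pairs in Hi-C was 10.3 to 17.1% with 1 list alone, 19.6% over 15 kb and 66.7% with a Hi-C region within 1 kb, instead of 28.4%. The share of its regions linked to another gene was 71.4 to 73.9% with 1 list alone instead of 36.0%. The remaining values, those of the combined list included, stayed within 1.5 times the value given or within the spread or interval. The cause of these differences was not tested. Pairing by any promoter fragment of the gene gives no value for a single fragment.

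No paired analysis was possible because the Hi-C list pools its replicates and the lists hold positions without a tested level. The lists hold no read numbers, so depth could not be compared between the replicates, and absence from a list does not show that no contact was made.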
